A study of Homo sapiens with 21 samples.

Results

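Adding 0.1 µM THZ531 to 3.16 µM lapatinib was followed in RNA of Hs578T cells, an established breast cancer line, taken 8 h after treatment. The members were 6 of the 21 libraries of the series, found by the labels of their count columns: 3 of cells given both compounds (the combination) and 3 of cells given 3.16 µM lapatinib alone. Of the 28395 genes in the count table, 16036 passed a filter on low counts and were tested. The other groups used here, with 3 libraries each and the same line and time, were given the DMSO solvent, 0.1 µM THZ531, 1 µM THZ531, 1 µM nilotinib, or 0.1 µM THZ531 with 1 µM nilotinib. The replicates were made in separate experiments, as the study describes, and the p-values measure the spread among them.

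Lapatinib blocks the kinase activity of the receptors EGFR and HER2 (ERBB2). THZ531 binds covalently to CDK12 and CDK13, kinases that with cyclin K phosphorylate the tail of RNA polymerase II during elongation, and loss of CDK12 activity is known for lowering the RNA of long genes of DNA repair. Hs578T is a mesenchymal line without oestrogen receptor, progesterone receptor or amplified HER2. ATF4 is a transcription factor that cells make when amino acids run short or proteins misfold, and it switches on genes of amino acid synthesis, amino acid import and tRNA charging.

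Markers of the labelled line were read in counts. VIM, the mesenchymal filament protein vimentin, had 711719 to 909213 counts in the 6 libraries. EPCAM, an adhesion protein of epithelial cells, had 0 to 4 counts, the progesterone receptor gene PGR 0 to 2 and the epithelial factor GRHL2 0 to 2. Others were low but detected: ESRP1 had 6 to 149 counts, ESR1 10 to 44 and CDH1 15 to 41. ERBB2 was present at 2206 to 4280 counts. Of the markers of blood and vessel cells, HBB was at 0 in all 6 libraries, CD3E and CDH5 had 0 to 2 counts, CD14 0 to 23, VWF 7 to 26, PECAM1 28 to 67 and PTPRC 93 to 188.

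In the combination, 3351 genes (20.9% of those tested) were lower than with lapatinib alone and 1319 (8.23%) were higher, at a Benjamini-Hochberg adjusted p under 0.05 in edgeR's quasi-likelihood test and a log2 fold change beyond 1. At the adjusted p alone, 5999 genes (37.4%) were lower and 5591 (34.9%) higher. The lower genes made up 71.8% of the genes called with the limit on size, with a median log2 fold change of −1.69, against 1.70 for the higher genes. The median over all tested genes was −0.003. Of 5 classes of abundance of equal size, the middle class had the highest share called lower, 34.8%, with 2.84% higher. The class below it had 28.9% lower and the class above it 20.2%. In the lowest class 16.3% were called lower and 21% higher. Genes with few lapatinib counts pass the filter on low counts only through groups where they are high. A fall is not visible in such genes, so the shares of the lowest class are a description. In the highest class 4.45% were lower and 2.71% higher. Most genes of the highest class thus missed the limits.

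These directions are relative to the TMM scaling, which takes most genes as level. Scaling to library size alone moved the median of all genes to −0.333, and scaling to the 13 mitochondrially encoded mRNAs moved it to −0.547. A log2 fold change between 0 and 0.33 therefore turns negative by library size alone, and the share of calls that are lower becomes 84.5% by library size, with 847 genes higher, and 89.3% by the mitochondrial mRNAs, with 5537 lower and 665 higher. With at least 10 counts in every library, 703 genes were higher. Whether the cells held less RNA cannot be read from these counts.

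KRCC1, a coiled-coil protein gene, had the largest fall among abundant protein-coding genes that overlap no other annotated gene. It had 40.6, 34.2 and 35.3 CPM (read counts brought to a common library size by TMM) with lapatinib and 1.65, 1.24 and 1.25 in the combination. The groups lie far apart, with each combination library below every lapatinib library. Its log2 fold change was −4.74 (standard error 0.13, adjusted p 2.2e-16). IRF2, a factor that restrains interferon-driven transcription, went from 14.9, 12.6 and 14.2 CPM to 0.426, 0.624 and 0.701. Its log2 fold change of −4.57 had an adjusted p of 6.2e-14, and no libraries overlapped. PRR14L fell by 4.58 on the log2 scale, CASP8AP2, a partner of caspase-8 and of histone transcription, fell by 4.19 and the zinc finger gene ZNF839 fell by 4.17. ZSCAN20 fell by 4.05, FSAF1 fell by 4.03, C2orf42 fell by 3.82, LYSMD3 fell by 3.81 and ZNF627 fell by 3.79. With no limit on type or overlap, the largest falls also included KAT14, a subunit of the ATAC histone acetyltransferase complex, at −5.07 and ZNF609 at −4.82.

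The 10 largest rises, by the same limits, ran from SNX32, a sorting nexin, at a log2 fold change of 3.85 and RASD1, a small G protein, at 3.83 to the nuclear receptor gene NR4A2 at 2.50. FOS, which pairs with JUN proteins in the AP-1 factor, had 1.02, 1.16 and 1.24 CPM with lapatinib and 11.4, 15.7 and 11.5 in the combination. Every combination library was above every lapatinib library, and the log2 fold change was 3.49 (standard error 0.22, adjusted p 2.7e-11). JUNB, another AP-1 subunit and outside those 10 because it overlaps another gene, went from 32.1, 30.3 and 31.5 CPM to 263, 271 and 267. The replicates lay close together on both sides, and its log2 fold change was 3.09 (adjusted p 5.1e-17). ID2, an inhibitor of basic helix-loop-helix factors, had 31.2, 30.7 and 29.9 CPM and then 223, 201 and 220, a log2 fold change of 2.81. The others of the 10 were IER5L (2.68), DIPK2A (2.67), the kinase gene SIK1 (2.58), GADD45B (2.57), a stress response gene, and the chemokine gene CCL2 (2.54). With no limit on type or overlap, EID3 was highest of the protein-coding genes named, from 0.324, 0.289 and 0.212 CPM to 15.5, 19.1 and 18.7, and MGC12916 had a log2 fold change of 4.62.

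**Figure D1:**
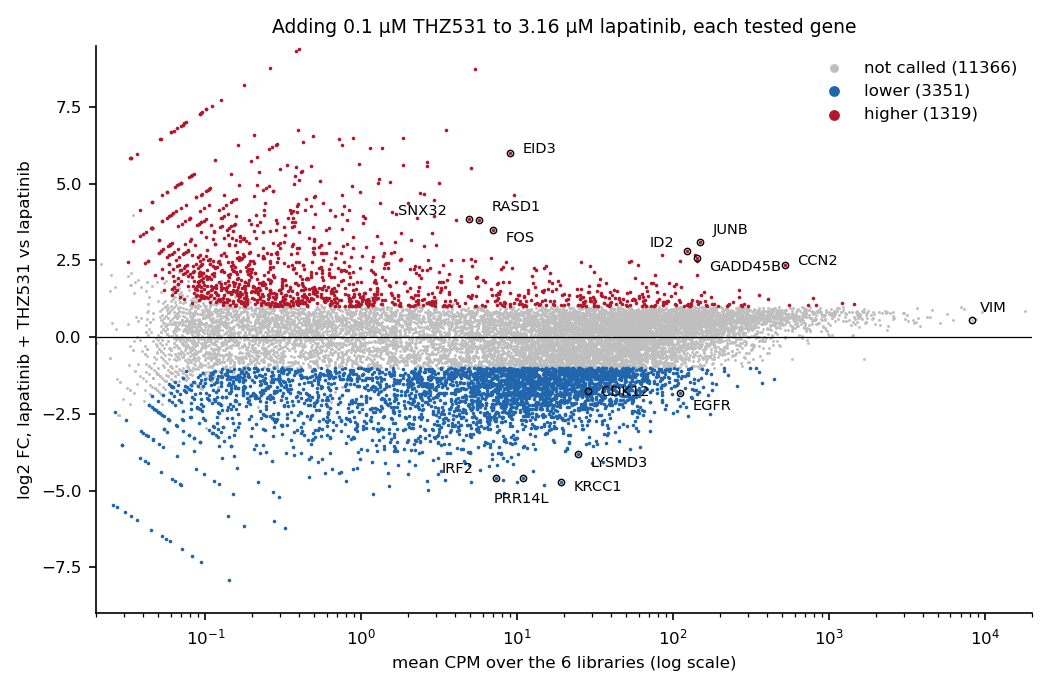
Each point is a tested gene, with its mean CPM over the 6 libraries on a log axis and its log2 fold change in the combination against lapatinib on the other; blue genes were called lower (3351), red genes higher (1319) and grey genes neither. Falls gather at middle levels, rises beyond 3 at low levels, and abundant genes such as VIM stay close to the line at 0. Genes with few lapatinib counts, in which a fall was not visible, are included.

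The reads carry no strand, so reads of overlapping genes cannot be told apart. Of the tested protein-coding genes, 8187 of 13747 overlap another annotated gene. Among the genes whose values are given for each library, these are VIM, EID3, JUNB, CCN2, SLFN5, INSIG1, STARD4, DDIT3, CDK12, HEXIM1, EGFR, BRCA2, ATRIP, RAD17, MVK, SGK1, ABCG2 and RPL3.

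THZ531 at 0.1 µM had far fewer calls without lapatinib. Against DMSO, 119 genes (0.742%) were lower and 23 (0.143%) higher by the same limits. The difference between both responses to 0.1 µM THZ531, with lapatinib minus without, was tested as an interaction: 2942 genes (18.3%) had a lower and 1075 (6.7%) a higher response under lapatinib, with a log2 difference beyond 1. By the mitochondrial mRNAs these counts were 5069 and 449, and the higher count was 653 by library size and 696 with at least 10 counts in every library. IRF2 had 14.9, 13.5 and 14 CPM with DMSO and 15.7, 14.8 and 13.8 with 0.1 µM THZ531, which overlap, and its log2 difference between responses was −4.64 (standard error 0.24, adjusted p 6.8e-12). PRR14L had −4.21 and MED9, a Mediator subunit, −3.74. On the other side SNX32 had 3.98, RASD1 3.27 and FOS 3.04. KRCC1 already fell by 1.17 with 0.1 µM THZ531 alone (adjusted p 1.8e-06), and its response under lapatinib was lower by a further −3.57.

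The 3351 genes lower in the combination had a median log2 fold change of −0.11 on 0.1 µM THZ531 alone, of −1.62 when 0.1 µM THZ531 was added to nilotinib, and of −1.43 with 1 µM THZ531 against DMSO. None of these 3 contrasts shares a library with the combination and lapatinib groups. The genes called lower in the combination and with nilotinib numbered 2896, which is 86.4% of the combination's and 90.2% of the 3211 of the nilotinib contrast. With 1 µM THZ531 the shared genes numbered 2490, which is 74.3% of the combination's and 82.3% of 3027. Of the 1319 higher genes, 878 (66.6%, and 80.4% of 1092) were also higher with nilotinib and 719 (54.5%, and 77.7% of 925) at 1 µM. Across the 16036 genes, which are not independent replicates, Pearson's r of the log2 fold changes with those of the combination was 0.225 for 0.1 µM alone, 0.922 for the nilotinib contrast and 0.879 for 1 µM, and Spearman's rho was 0.264, 0.923 and 0.874.

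**Figure D2:**
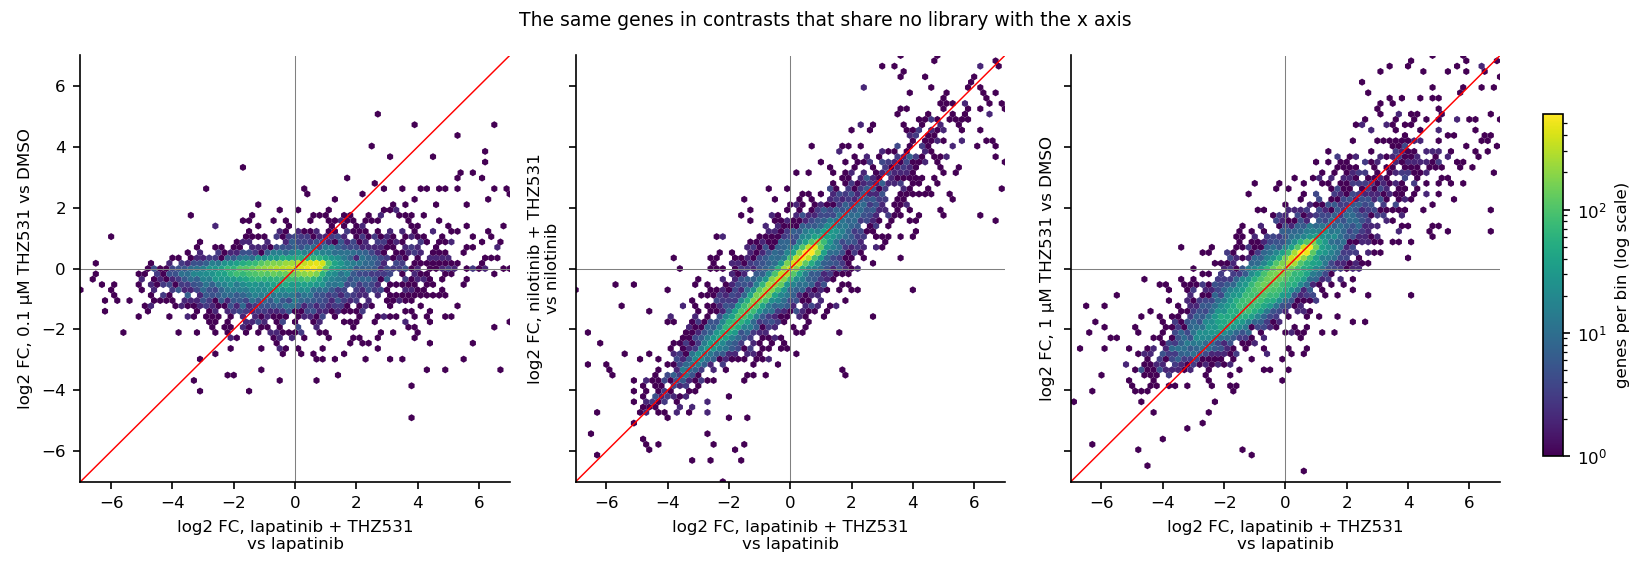
Hexagons count genes on a log colour scale, with the log2 fold change of the combination against lapatinib on each horizontal axis and that of a contrast with no shared library on the vertical axis; the red line marks equal values and genes beyond 7 on either axis are not drawn. Values with 0.1 µM THZ531 alone lie near 0 (r 0.225), while those with nilotinib (r 0.922) and at 1 µM (r 0.879) follow the line.

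Tested directly, the response to 0.1 µM THZ531 under lapatinib differed from that under nilotinib for 0 genes (0%) in edgeR. At an unadjusted p under 0.05 there were 1579 genes (9.85%), and the smallest adjusted p was 0.15. DESeq2 gave 81 genes at an adjusted p under 0.05, 4 of them with a log2 difference beyond 1, and limma voom gave 0. Missing the threshold does not show that the responses were equal. Against 1 µM THZ531, 272 genes (1.7%) had a lower and 169 (1.05%) a higher response in the combination. The count of 169 rested on individual libraries: it was 301 without combination replicate 1, and 317, 79 and 283 without 1 µM replicates 1, 2 and 3.

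Lapatinib alone raised 27 genes (0.168%) over DMSO at an adjusted p under 0.05 and a log2 fold change over 0.5, which is the lapatinib-induced list used here. Of them 11 are also on the ATF4 list, among them ATF4 itself and ASNS, which makes asparagine, and 3 are on the sterol list. The edge of the list was close: DNAJC3 was inside at 0.51 and XPOT outside at 0.50, and PTX3 was inside at an adjusted p of 0.0467 and LYSET outside at 0.0522. Leaving out any DMSO or lapatinib library shortened the list to between 6 and 8 genes. Other settings lengthened it, to 42 genes with no filter, 55 with DESeq2 and 59 with only the compared groups fitted. INSIG1, LIPG, MSMO1, PLAT and STARD4 stayed on it in all 6 such fits. A high lapatinib value both puts a gene on the list and lowers it in the combination contrast, so the values there are a description.

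Of the 27 lapatinib-induced genes, 18 were lower in the combination than with lapatinib at an adjusted p under 0.05, beside 37.4% of all tested genes, 3 were higher, beside 34.9%, and 6 passed in neither direction, with a median log2 fold change of −0.54 and a range from −4.36 to 0.86. By mean level, 11 were at or below DMSO in the combination, 9 lay between DMSO and lapatinib, and 7 were at or above lapatinib. With any DMSO or lapatinib library left out, when the list held 6 to 8 genes, 6 or 7 of them were lower in the combination. Of the longer lists of 42, 55 and 59 genes, 28, 33 and 44 were lower, with no share of all genes computed for those fits. The median was below 0 under each scaling. By library size 20 of the 27 were lower at the adjusted p, beside 7748 of all 16036 genes, and 0 higher, beside 3393. The summed level of the 27 was 5064.8, 5016.0 and 4543.3 CPM with lapatinib and 4432.0, 5007.9 and 4882.6 in the combination, which overlap. By library size the sums do not overlap, at 5521.9, 5517.1 and 5047.4 with lapatinib and 3859.5, 4439.2 and 4232.5 in the combination.

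SLFN5, a Schlafen gene induced by interferon, fell most. It had 14.3, 13.6 and 14.1 CPM with DMSO, 24.7, 24.6 and 23.2 with lapatinib and 1.26, 1.15 and 1.12 in the combination. The groups do not overlap, and the combination lies far below DMSO. Its log2 fold change against lapatinib was −4.36 (standard error 0.20, adjusted p 1.5e-13). ULBP1, a ligand of the natural killer receptor NKG2D, fell by 2.93, OGT, which puts O-GlcNAc on proteins, fell by 1.98, the retinal reductase gene DHRS3 fell by 1.82 and the amino acid carrier gene SLC1A4 fell by 1.58. ADM2, a peptide of the adrenomedullin family, fell by 1.53, and PCK2, the mitochondrial phosphoenolpyruvate carboxykinase, fell by 1.10. PLAT, tissue plasminogen activator, had 147, 164 and 148 CPM with DMSO, 274, 268 and 280 with lapatinib and 90.3, 84.6 and 74.1 in the combination. No groups overlapped, and its log2 fold change was −1.72 (adjusted p 6.5e-12).

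The lapatinib-induced sterol genes were lower in the combination, all 3 of 3, beside 37.4% of all tested genes. In the whole sterol list, described below, 13 were lower and 16 higher. INSIG1, which holds the SREBP sensor in the endoplasmic reticulum, had 113, 101 and 111 CPM with DMSO, 200, 176 and 191 with lapatinib and 65.6, 74.4 and 66.9 in the combination. The combination was below DMSO in every library, and the log2 fold change was −1.45 (adjusted p 6.2e-12). STARD4, a cholesterol carrier, had 24.2, 22 and 24 CPM with lapatinib and 17.1, 16.5 and 14.7 in the combination, still above the 14.6, 13 and 13.3 of DMSO. It fell by 0.54 (adjusted p 3.7e-05). MSMO1, an enzyme of cholesterol synthesis, had −0.22 (adjusted p 0.0081), and its adjusted p was 0.0555 without lapatinib replicate 1 and 0.0502 with DESeq2's size factors, which leaves 2 of 3. LIPG, endothelial lipase, fell by 0.97.

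ATF4 RNA had 78.1, 86 and 80.3 CPM with DMSO, 175, 173 and 146 with lapatinib and 173, 189 and 192 in the combination, where the latter groups overlap. Its log2 fold change was 0.16 (adjusted p 0.46), but −0.17 by library size and −0.38 by the mitochondrial mRNAs (adjusted p 0.044). HSPA5, the endoplasmic reticulum chaperone BiP and the most abundant of the 27, had 1856, 1966 and 1680 CPM with lapatinib and 2078, 2684 and 2541 in the combination. Those groups do not overlap, yet the adjusted p was 0.055 for a difference of 0.41 on the log2 scale, with values of 0.08 by library size and −0.14 by the mitochondrial mRNAs. It was past the threshold with DESeq2 (0.46, adjusted p 0.0195) and with a replicate block (0.42, adjusted p 0.0482). ASNS had −0.23 (adjusted p 0.28), the glycyl-tRNA synthetase gene GARS1 0.22 (adjusted p 0.059), and the mitochondrial folate enzyme genes MTHFD1L 0.12 (adjusted p 0.37) and MTHFD2 −0.35 (adjusted p 0.11), which was −0.68 by library size (adjusted p 0.00363) and had an adjusted p of 0.047 with the block. DDIT4, an inhibitor of mTORC1, went up further, from 21.6, 18.2 and 19.8 CPM with lapatinib to 36, 32.9 and 39.4, with no overlap, and rose by 0.86 (adjusted p 0.0095). FST, the activin antagonist follistatin, rose by 0.54 and DNAJC3, a co-chaperone of the endoplasmic reticulum, by 0.51. By library size alone these 3 rises missed the threshold, with adjusted p of 0.0966 for DDIT4, 0.0954 for FST and 0.0669 for DNAJC3, and DNAJC3 was at −0.04 by the mitochondrial mRNAs.

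**Figure D3:**
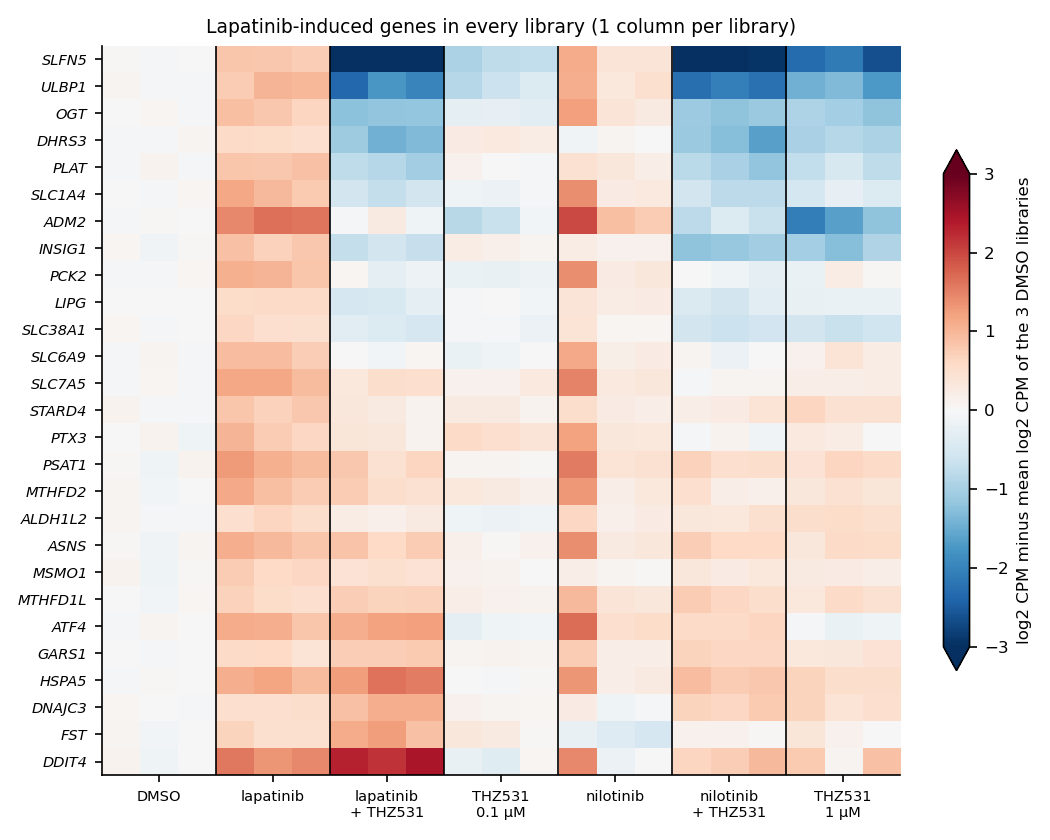
Each row is a lapatinib-induced gene and each column a library, coloured by log2 CPM minus the mean log2 CPM of the 3 DMSO libraries, with values beyond 3 drawn at 3. In the combination the upper genes, from SLFN5 down, are blue and below DMSO, and the lowest genes, such as DDIT4 and HSPA5, stay red; nilotinib replicate 1 is redder than the other nilotinib libraries.

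The same 27 genes were read in contrasts whose libraries did not choose them. On adding 0.1 µM THZ531 to nilotinib, 14 of 27 were lower, beside 36.7% of all tested genes, 3 higher, beside 33.6%, and 10 neither, with a median of −0.62. From 0.1 to 1 µM THZ531, 9 were lower, beside 35.9% of all genes, 9 higher, beside 34.3%, and 9 neither, with a median of 0.04. By the mitochondrial mRNAs 15 were lower. Those mRNAs had a median of 0.59 in this contrast, so that scaling moves all genes down, and the share of all genes by it was not computed. In the interaction 16 were lower, beside 32% of all genes, and 2 higher, beside 28.2%, though that contrast subtracts the lapatinib minus DMSO difference that chose the genes. Nilotinib replicate 1 stood apart in these genes: their summed level was 5510.8 CPM in it and 3102.9 and 3156.0 in nilotinib replicates 2 and 3, against 5064.8, 5016.0 and 4543.3 with lapatinib. Without that library the count under nilotinib was again 14.

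Of the 46 tested genes of the ATF4 list, 10 (21.7%) were called lower, a share near the 20.9% of all tested genes, and 0 higher, beside 8.23%. At the adjusted p alone 19 were lower and 8 higher, beside 37.4% and 34.9% of all genes, with a median of −0.27. By the mitochondrial mRNAs 37 were lower and 0 higher, beside 8443 and 1236 of all 16036 genes. The ATF4 list's summed level was 7828.1, 7564.0 and 7099.6 CPM with lapatinib, 6818.7, 6587.3 and 6747.4 in the combination and 5771.0, 5653.6 and 5750.7 with DMSO. By library size alone the order differed: the sums were 5937.8, 5839.2 and 5849.1 in the combination, below the 6377.8, 6180.3 and 6296.1 of DMSO. DDIT3, which encodes the stress factor CHOP, had 15.1, 14.1 and 11.2 CPM with lapatinib and 2.60, 3.68 and 3.61 in the combination, and fell by 2.03. TRIB3, a pseudokinase that CHOP and ATF4 induce, fell by 1.82. PHGDH, which starts serine synthesis, rose by 0.59, but had 0.05 by the mitochondrial mRNAs (adjusted p 0.8).

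Promoters of the ATF4 genes were searched for the C/EBP-ATF element, through which ATF4 acts. In the 250 bases before the start, TGATGNAA on either strand was in 1061 of 27305 promoters (3.89%), in 8 of 39 on the ATF4 list (20.5%) and in 3 of 24 lapatinib-induced genes (12.5%). Those 3 were ASNS, GARS1 and MTHFD1L, which had adjusted p of 0.28, 0.059 and 0.37 in the combination. By the mitochondrial mRNAs all 3 were lower past the threshold, at −0.78 (adjusted p 0.000268), −0.33 (adjusted p 0.0319) and −0.42 (adjusted p 0.0179), and by library size ASNS was (−0.56, adjusted p 0.0118). With DESeq2's size factors GARS1 was instead higher past the threshold (0.27, adjusted p 0.0244). A match is a description of letters and not a bound site. The windows lie at chr7:97872447-97872498 on the minus strand, chr7:30594823-30594874 on the plus strand and chr6:150866335-150866386 on the plus strand (RefSeq, GRCh38.p14), written 5′ to 3′ along the gene with the element, or its reverse complement, in capitals.
ASNS: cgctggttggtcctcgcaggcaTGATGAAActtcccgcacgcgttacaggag
GARS1: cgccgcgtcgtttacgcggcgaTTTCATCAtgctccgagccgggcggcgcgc
MTHFD1L: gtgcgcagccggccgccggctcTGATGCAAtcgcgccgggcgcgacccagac

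Immediate-early genes, which cells switch on within minutes of a signal without new protein, were called higher in 13 of 22 cases (59.1%), beside 8.23% of all tested genes. In the list 1 gene (4.55%, beside 20.9% of all genes) was called lower, NR4A1 at −1.55. The adjusted p was missed by 5 genes, and the median of 1.43 stayed above 0 under the other scalings. EGR1, a zinc finger factor downstream of ERK and SRF, had 4.65, 4.56 and 5.08 CPM with lapatinib and 15.6, 30.9 and 18.5 in the combination. The spread among combination libraries was wide but no libraries overlapped, and the log2 fold change was 2.19 (adjusted p 2.4e-07). CCN2, a matricellular protein and target of YAP, had 172, 175 and 168 CPM and then 802, 930 and 880, with a log2 fold change of 2.34. ATF3 rose by 2.33, IER2 by 2.02, KLF4 by 1.75 and MYC by 0.90. By library size, and by the mitochondrial mRNAs, 11 of the 22 were called higher, beside 847 and 665 of all 16036 genes.

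The CArG box, the 10-base element that SRF binds, was looked for in the same promoters because it drives many immediate-early genes. It was in 394 of 27305 promoters (1.44%) on either strand and in 3 of 17 immediate-early genes (17.6%), EGR1, EGR2 and SRF. EGR2 rose by 1.57, and SRF had a log2 fold change of 0.29 (adjusted p 0.015), which was −0.04 by library size (adjusted p 0.757). The windows lie at chr5:138465374-138465427 (plus), chr10:62816406-62816459 (minus) and chr6:43171237-43171268 (plus), from RefSeq GRCh38.p14, with the boxes in capitals.
EGR1: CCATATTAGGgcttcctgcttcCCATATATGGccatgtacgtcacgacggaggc
EGR2: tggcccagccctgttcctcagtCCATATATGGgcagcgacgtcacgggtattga
SRF: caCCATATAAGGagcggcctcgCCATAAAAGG

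CDK12, a target of THZ531, had 39.6, 46.9 and 44.7 CPM with lapatinib and 10.7, 14.5 and 13.3 in the combination. The groups lie apart, and the log2 fold change was −1.77 (standard error 0.15, adjusted p 1.3e-09). With 0.1 µM THZ531 alone it instead rose by 0.50 against DMSO (adjusted p 0.039), and the difference between responses was −2.27 (adjusted p 9.4e-09). CDK13 had −0.35 (adjusted p 0.073), but was past the threshold at −0.68 by library size (adjusted p 0.00174) and −0.90 by the mitochondrial mRNAs. The cyclin K gene CCNK had 0.39 (adjusted p 0.0074), but 0.06 and −0.16 by those scalings (adjusted p 0.68 and 0.361). Of the 17 genes of transcriptional kinases, cyclins and their partners, CDK12 (5.88%, beside 20.9% of all genes) was called lower. HEXIM1, which inhibits the elongation kinase CDK9, and POLR2A, the large subunit of RNA polymerase II, were called higher (11.8%, beside 8.23%), with a median of −0.10 for the list. By library size 4 were lower and 2 higher, beside 4618 and 847 of all 16036 genes. By the mitochondrial mRNAs these counts were 4 and 0, beside 5537 and 665. HEXIM1 had 19.1, 24 and 21.9 CPM with lapatinib and 39.2, 73 and 73.8 in the combination, and POLR2A 171, 218 and 202 and then 367, 604 and 576. Combination replicate 1 was lowest for both, and still above every lapatinib library.

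EGFR had 153, 188 and 178 CPM with lapatinib and 44.4, 50.3 and 50.7 in the combination. The groups do not overlap, and it fell by 1.83 (adjusted p 1.9e-12). ERBB2 had −0.40 (adjusted p 0.004). Of the 21 tested ERBB receptors, ligands and inhibitors, 5 (23.8%) were called lower and 1 (4.76%) higher, shares near the 20.9% and 8.23% of all tested genes, with a median of −0.18. The others lower were EPGN, an EGFR ligand with at most 0.377 CPM in these libraries, LRIG2, and the ubiquitin ligase genes CBL and CBLB, which take active receptors down. HBEGF, an EGFR ligand, was the gene called higher, from 10.5, 12.9 and 11.8 CPM to 46.1, 55.5 and 50.3, with a log2 fold change of 2.11 (adjusted p 1.8e-13). Of 21 ERK feedback genes and ETS targets, 6 (28.6%) were called lower and 3 (14.3%) higher, beside 20.9% and 8.23% of all genes, with a median of −0.31. ETV5, an ETS factor that ERK induces, fell by 1.90 and the AP-1 subunit gene FOSL1 by 1.89, while DUSP6, the ERK phosphatase, had 0.10 (adjusted p 0.36) and −0.23 by library size (adjusted p 0.0322). The genes called higher were PHLDA2, IER3 and MAFF, which was below the limit on size by library size, at 0.88.

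Genes of homologous recombination and the Fanconi anaemia pathway were called lower in 14 of 32 cases (43.8%, beside 20.9% of all tested genes) and higher in 0 (beside 8.23%), with a median of −0.91. BRCA2, a mediator of strand exchange at broken DNA, had 14.7, 22.1 and 21.3 CPM with lapatinib and 2.98, 3.97 and 3.24 in the combination. No libraries overlapped, and the log2 fold change was −2.51 (adjusted p 2.5e-10). BRCA1, which acts upstream of it, fell by 1.63 against lapatinib. With 0.1 µM THZ531 alone, in separate libraries against DMSO, it fell by 0.84 (adjusted p 0.00024). The nuclease scaffold gene SLX4 fell by 3.81, XRCC2 by 2.86 and the helicase gene BLM by 2.83. FANCA, part of the Fanconi core complex, rose by 0.84, but had 0.29 by the mitochondrial mRNAs (adjusted p 0.0718). FANCD2, the protein that the pathway ubiquitinates, had −0.13 (adjusted p 0.092), −0.46 by library size (adjusted p 2.3e-06) and an adjusted p of 0.0464 with a replicate block.

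Of 22 checkpoint genes, 8 (36.4%, beside 20.9% of all genes) were called lower and 0 higher, beside 8.23%, with a median of −0.77. ATRIP, the partner that brings ATR to single-stranded DNA, had 16.5, 16.3 and 16.9 CPM with lapatinib and 1.52, 1.54 and 1.5 in the combination. Replicates were nearly equal, and the log2 fold change was −3.44 (adjusted p 7.1e-16). ATR fell by 1.25, while CHEK1, its effector kinase, had −0.64. RAD17 had −3.79 on 2.86 CPM in lapatinib replicate 1 and 0.334 and 0.341 in the others. Without that replicate its adjusted p was 0.101. Of 37 genes of G1/S and replication licensing, 13 (35.1%) were called lower and 2 (5.41%) higher, beside 20.9% and 8.23% of all genes, with a median of −0.40. E2F7, an E2F repressor, had 97.4, 110 and 110 CPM and then 11.9, 13.9 and 12.2, and E2F5 and the kinase gene CDC7, which fires origins, fell by 3.70 and 2.08. The genes called higher were PCNA, the sliding clamp, at 1.02 and the CDK inhibitor gene CDKN1A at 1.01. By library size these were below the limit on size, at 0.69 and 0.68, so 0 genes of the list were called higher, beside 847 of all 16036 genes.

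Zinc finger genes with ZNF symbols had the lowest median of the lists described. Of 440 tested, 291 (66.1%, beside 20.9% of all genes) were called lower and 10 (2.27%, beside 8.23%) higher, with a median of −1.52. ZNF564 went from 9.90, 9.28 and 9.90 CPM to 0.273, 0.470 and 0.367, far outside the lapatinib range. Those on chromosome 19, where most KRAB zinc finger genes lie in clusters, were called lower in 154 of 213 cases (72.3%) and those elsewhere in 137 of 227 (60.4%). Of the 900 other genes on chromosome 19, 16.7% were lower. The ZNF median was −0.03 with 0.1 µM THZ531 alone, −1.49 with nilotinib and −1.5 with 1 µM THZ531. Many of these genes share sequence, so some reads may belong to relatives.

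Gene length was related to the share called higher more than to the share called lower. In the shortest of 10 length classes of equal size, up to 3.65 kb, 28.2% were called higher and 8.26% lower, with a median of 0.67. In the longest class, from 160 kb, 2.59% were higher and 18.3% lower. The share called lower was highest in class 5, at 25.9%. The 90 ZNF genes of that class had a median of −2.10, against −0.04 for its other genes. Genes of 1 exon, 787 in all, had a median of 0.49 with 29.2% higher, against −0.04 and 6.36% for genes of several exons. Without histone, ribosomal protein and immediate-early genes, the 786 remaining protein-coding genes of the shortest class still had a median of 0.55, with 17.8% called higher. Genes with fewer than 10 counts in each lapatinib library were kept in these classes. They were 568 of 15857 with 363 higher calls, and 292 of 13747 protein-coding genes with 174. A fall was not visible in them, so the shares called higher are a description.

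**Figure D4:**
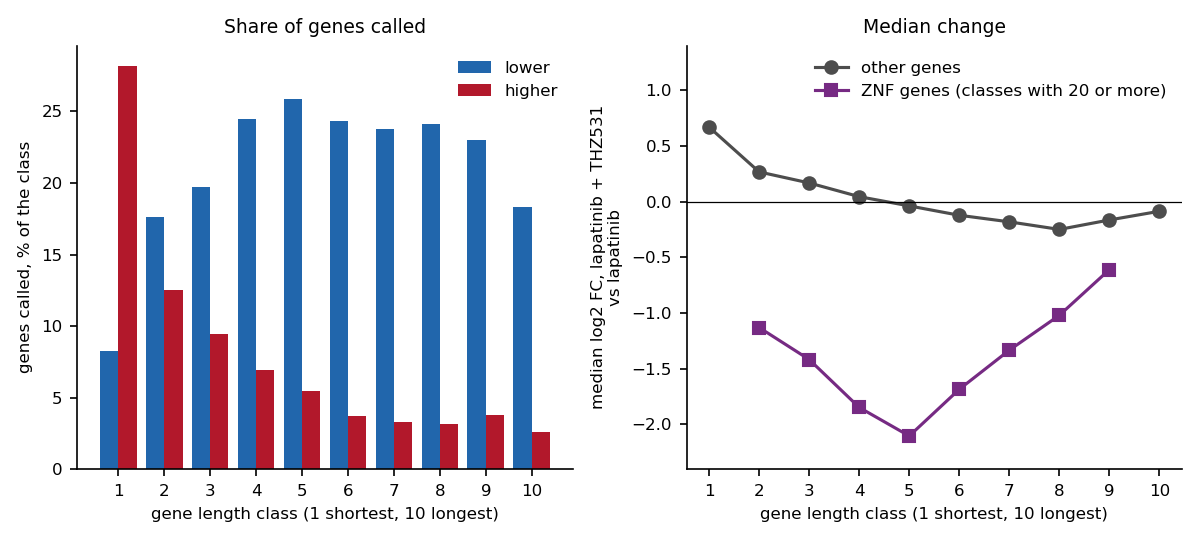
Left, bars give the percent of genes called lower (blue) or higher (red) in 10 classes of gene length; right, the median log2 fold change of the combination against lapatinib for ZNF genes (purple, classes with 20 or more) and other genes (grey). The share called higher drops from 28.2% in the shortest class to 2.59% in the longest, and the ZNF genes lie below the other genes in every class drawn. Genes with few lapatinib counts, in which a fall was not visible, are included.

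Of 83 cytosolic ribosomal protein genes, 80 were higher at the adjusted p, beside 34.9% of all genes, and 1 was lower, beside 37.4%. Beyond the limit on size 3 were higher (3.61%, beside 8.23% of all genes), and the median was 0.84. RPL3, for example, had 930, 838 and 817 CPM with lapatinib and 1679, 1422 and 1493 in the combination, without overlap, though it missed the threshold by the mitochondrial mRNAs (0.28, adjusted p 0.0812). Of 75 nuclear genes of oxidative phosphorylation, 72 were higher at the adjusted p and 10 beyond the limit (13.3%, beside 8.23% of all genes), with a median of 0.82. By library size, and by the mitochondrial mRNAs, 0 genes of either list were called higher, beside 847 and 665 of all 16036 genes. Both medians kept their sign under the other scalings, at 0.29 and 0.27 by the mitochondrial mRNAs, but by that scaling 11 of the 83 and 17 of the 75 were higher at the adjusted p, beside 1236 of all 16036 genes. Of 73 histone genes in the count table, 41 passed the filter on low counts. Of these, 23 (56.1%, beside 8.23% of all genes) were called higher and 1 (2.44%, beside 20.9%) lower, with a median of 1.26. By the mitochondrial mRNAs 11 were called higher, beside 665 of all 16036 genes. Genes near 0 with lapatinib pass the filter only through groups where they are high. A fall is not visible in such genes, so these counts are a description. The libraries were selected for poly(A), so the histone values count only the transcripts that this selection kept. The summed level of the 41 was 304.1, 314.9 and 292.2 CPM with lapatinib and 293.2, 326.2 and 322.5 in the combination, which overlap under TMM. By library size the sums do not overlap, at 331.6, 346.4 and 324.6 with lapatinib and 255.3, 289.1 and 279.6 in the combination. The 13 mitochondrially encoded mRNAs had a median of 0.55, which was 0.22 by library size and, by construction, near 0 when they set the scale.

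Of 34 tested sterol genes, 4 (11.8%, beside 20.9% of all genes) were called lower and 0 higher, beside 8.23%, with 1 higher under a replicate block. At the adjusted p alone 13 were lower and 16 higher, beside 37.4% and 34.9% of all genes. By the mitochondrial mRNAs 16 were lower and 0 higher, beside 8443 and 1236 of all 16036 genes. The sterol list's median of 0.24 became −0.09 by library size and −0.30 by the mitochondrial mRNAs. MVK, mevalonate kinase, had 16.8, 17 and 15.1 CPM with lapatinib and 2.74, 1.99 and 1.90 in the combination, and fell by 2.88. INSIG2, a relative of INSIG1, fell by 1.58. SREBF2, the factor that switches these genes on, rose by 0.73, but had 0.40 by library size and 0.18 by the mitochondrial mRNAs (adjusted p 0.219).

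Of the 26 genes of the PI3K pathway and FOXO targets, 4 (15.4%) were called lower and 4 (15.4%) higher, beside 20.9% and 8.23% of all genes. The median of 0.24 became −0.10 by library size and −0.31 by the mitochondrial mRNAs. PIK3R1, the regulatory subunit of PI3K, fell by 2.07, the insulin receptor substrate gene IRS1 by 1.68, INSR by 1.41 and PIK3CB by 1.12. SGK1, a kinase related to AKT, had 45.1, 41.1 and 42.2 CPM and then 247, 234 and 238, and rose by 2.49. TXNIP, a brake on glucose uptake, had 40.3, 35.5 and 38.6 CPM with DMSO, 15.1, 13.1 and 20.6 with lapatinib and 83.2, 91 and 96.9 in the combination. The combination was above both other groups, with a log2 fold change of 2.47 over lapatinib (adjusted p 1.5e-06). CITED2 and FOXO1 were the others called higher, and FOXO1 was below the limit on size by library size, at 0.95.

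Of 20 genes of the BCL2 family and of caspase inhibitors, 7 (35%) were called lower and 2 (10%) higher, beside 20.9% and 8.23% of all genes, with a median of −0.61. With a replicate block 3 were called higher, as BCL2A1 then passed the threshold (1.08, adjusted p 0.0372). MCL1, a short-lived survival protein, had 277, 255 and 269 CPM with lapatinib and 167, 204 and 186 in the combination. The groups do not overlap, and it fell by 0.53 (adjusted p 0.00051). BCL2L1, the gene of BCL-XL, fell by 0.91, XIAP by 1.82 and BIRC3 by 1.95. The death-promoting genes BBC3 (PUMA) and BCL2L11 (BIM) rose by 1.5 and 0.79, but BMF fell by 1.97. By the mitochondrial mRNAs BCL2L11 missed the threshold (0.24, adjusted p 0.232) and 0 genes of the list were called higher, beside 665 of all 16036 genes. BIK, the other gene called higher, had at most 0.12 CPM, and its adjusted p was 0.201 without combination replicate 1, 0.129 without lapatinib replicate 2, 0.0874 without lapatinib replicate 3, 0.0746 without combination replicate 3 and 0.0563 without lapatinib replicate 1.

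ABCG2, a drug efflux pump, had 25.4, 21.1 and 21 CPM with lapatinib and 31.4, 24.5 and 24.9 in the combination. The groups overlap, though each combination library was above the lapatinib library of its number. The log2 fold change was 0.26 (adjusted p 0.055), and with a replicate block its adjusted p was 0.0193. It was −0.07 by library size and −0.28 by the mitochondrial mRNAs (adjusted p 0.596 and 0.157), and past the threshold at 0.31 with DESeq2's size factors (adjusted p 0.0311). The efflux list's median of 0.10 became −0.23 by library size and −0.44 by the mitochondrial mRNAs. Of 9 efflux transporters tested, 0 were called lower, beside 20.9% of all genes, and 1 higher (11.1%, beside 8.23%). By library size 1 was lower and 0 higher, beside 4618 and 847 of all 16036 genes. The gene called higher was ABCC11, which had at most 0.186 CPM and an adjusted p of 0.169 without lapatinib replicate 1, 0.0824 without lapatinib replicate 2, 0.147 without combination replicate 2 and 0.11 without combination replicate 3. Of 15 mesenchymal genes, ZEB2, a repressor of epithelial genes, was called lower at −1.92 and S100A4 higher at 1.04, each 6.67% of the list beside 20.9% and 8.23% of all genes. By library size S100A4 was below the limit on size, at 0.71. At the adjusted p alone 11 were higher, beside 34.9% of all genes. By library size 6 were higher, beside 3393 of all 16036 genes, and by the mitochondrial mRNAs 1, beside 1236. The mesenchymal median of 0.50 became −0.05 by the mitochondrial mRNAs. COL1A1, a chain of type I collagen, had 5418, 7758 and 7473 CPM with lapatinib and 8289, 13803 and 14728 in the combination, and rose by 0.83 (adjusted p 0.0014). That became 0.50 by library size (adjusted p 0.0401) and 0.28 by the mitochondrial mRNAs (adjusted p 0.149). Of 9 epithelial and hormone receptor genes tested, 3 (33.3%, beside 20.9% of all genes) were called lower, ESRP1, ESR1 and CLDN4, and 1 (11.1%, beside 8.23%) higher, CLDN7, with a median of 0.001 that became −0.33 by library size. The summed level of these 9 went from 131.3, 129.0 and 126.7 CPM with lapatinib to 214.8, 206.5 and 215.2 in the combination, most of it from the keratin gene KRT18. Of 5 tested genes of blood and vessel cells, 1 (20%, beside 20.9% of all genes) was called lower and 0 higher, beside 8.23%, with a median of −0.50. That was CD14, at 0 to 23 counts, with an adjusted p of 0.109 without combination replicate 1, 0.0793 without lapatinib replicate 2, 0.0692 without lapatinib replicate 3 and 0.0676 without combination replicate 3. Nearly all of that list's summed level came from CD68, a lysosomal protein gene that many cell types express, at 97.2, 124 and 106 CPM with lapatinib and 131, 178 and 174 in the combination. By library size its rise missed the threshold (0.23, adjusted p 0.0787).

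**Figure D5:**
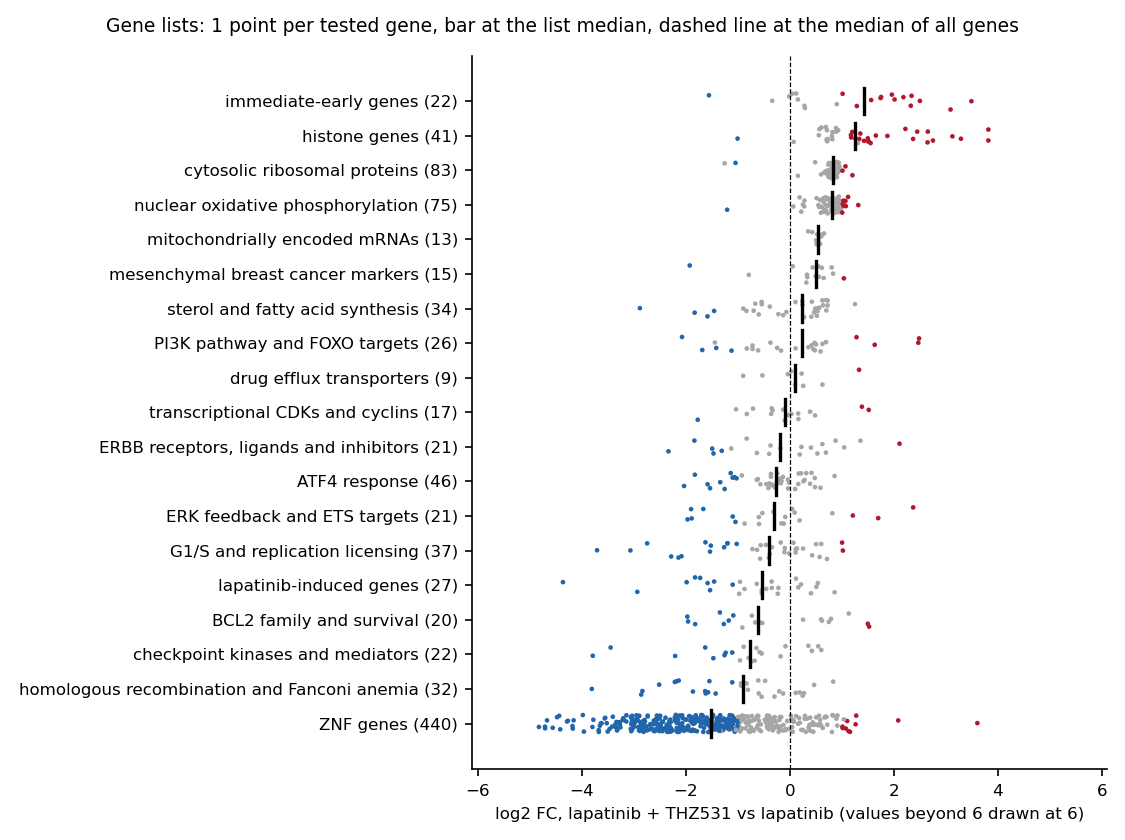
Each point is a tested gene of a list, at its log2 fold change in the combination against lapatinib (blue called lower, red called higher, grey neither); the black bar is the list's median and the dashed line that of all genes. ZNF genes (median −1.52) lie furthest to the left and immediate-early genes (median 1.43) furthest to the right. The medians of the sterol, PI3K and efflux lists turn negative by library size, and those of the mesenchymal and mitochondrial lists by the mitochondrial mRNAs. The epithelial list and the blood and vessel list are not drawn.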

How the data were processed

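RNA of Hs578T cells was measured 8 h after treatment in 21 libraries, 3 for each of 7 groups. Per the submitters' processing notes and labels, unstranded poly(A) libraries were read as pairs of 100 bases, aligned to GRCh38 with HISAT2 2.1.0 and counted on genes with featureCounts. The deposited values are raw counts per gene, and the authors did not state the annotation, or whether ends or pairs were counted. Library totals ran from 97612207 to 112229052 counts, and 27745 of 28395 gene identifiers, with 99.98% of counts, matched a RefSeq name.

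Counts of all 21 libraries were fitted with edgeR 4.0.16 in R 4.3.3: filterByExpr, TMM scaling, 1 mean per group, the quasi-likelihood test and Benjamini-Hochberg adjustment over 16036 genes. Calls needed an adjusted p under 0.05 and a log2 fold change beyond 1. CPM values are TMM-scaled. The interaction is the combination minus lapatinib, minus 0.1 µM THZ531 minus DMSO. limma 3.58.1 and DESeq2 1.42.0 served as alternatives, and tables and plots used Python 3.11.15, numpy 2.4.6, pandas 2.3.3 and matplotlib 3.10.9. The test was tried on simulated data with few changed genes, equally many up and down. That setting differs from these data, so the trial cannot speak for the scaling or the calls here. Gene lengths and exons came from the reference annotation.

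Residuals of same-numbered lapatinib and combination libraries correlated across genes at r 0.631, 0.344 and 0.108, and those of DMSO and 0.1 µM THZ531 at 0.43, −0.059 and −0.376. All same-numbered lapatinib and combination pairs thus passed 0.1, but only replicate 1 was set apart by its number. Lapatinib replicate 2 with combination replicate 3 gave 0.434, and lapatinib replicate 3 with combination replicate 2 gave 0.329. Nilotinib and 1 µM THZ531 libraries were not compared in this way. The main model was planned without pairs, and a replicate block was the alternative. Among the 6 libraries no 2 replicates of the same group were copies: the lowest chi-square per degree of freedom between replicates was 17.26.

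Members and gene lists were chosen with earlier results of these data known. Named genes were the 10 largest falls and rises among protein-coding genes whose log2 CPM averaged at least 1, with no overlap between groups and no overlapping gene, the 3 largest without the limits on type and overlap, the 3 largest interactions each way by the same limits, the lapatinib-induced genes, the 2 largest falls and rises of each list, list members whose role is described, and ABCG2, CDK12, CDK13, MCL1, EGFR and ERBB2. Other settings tried were 3 scalings, 2 filters, 2 other tools, glmTreat, only the compared groups, and each library left out in turn.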

Additional observations from a re-analysis of the deposited data

Results flagged for a closer look

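The response to 0.1 µM THZ531 differed with and without lapatinib by a test of the difference itself, edgeR's interaction contrast. It was lower under lapatinib for 2942 genes and higher for 1075. By the limits on abundance, type and overlap, the largest log2 differences below 0 were IRF2 at −4.64, PRR14L at −4.21 and MED9 at −3.74. Those above 0 were SNX32 at 3.98, RASD1 at 3.27 and FOS at 3.04. Of the 27 lapatinib-induced genes, 16 had a lower and 2 a higher response under lapatinib, beside 32% and 28.2% of all tested genes. These genes were chosen for a high lapatinib minus DMSO difference, which the contrast subtracts, so a lower response is partly built in and the counts are a description. Against the response to 1 µM THZ531, tested in the same way, 272 genes were lower and 169 higher.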

How the results depend on the processing

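Of 126 named genes, 94 kept their direction and side of the threshold under every alternative run for them. Over 1874 values, 1777 were on the same side, 63 lost and 29 gained the threshold, and 5 reversed with the threshold passed in either fit, all by scaling to the 13 mitochondrially encoded mRNAs: MTHFD1L (−0.42), GARS1 (−0.33), ATF4 (−0.38), DNAJC3 (−0.039) and RAD51B (−0.075). Short of the threshold in both fits, ABCG2 (−0.07), ATF4 (−0.17), GARS1 (−0.11) and MTHFD1L (−0.21) changed sign by library size and HSPA5 (−0.14) by the mitochondrial mRNAs. Outside the 126, SRF (−0.04) and DUSP6 (−0.23) changed sign by library size and CCNK (−0.16) by the mitochondrial mRNAs. Each of these scalings shifts every gene by nearly the same amount, which was downward in these libraries.

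By library size alone the combination had 847 genes higher and the interaction 653. By the mitochondrial mRNAs the combination had 5537 lower and 665 higher, and the interaction 5069 and 449. By that scaling 15 lapatinib-induced genes were lower at 1 than at 0.1 µM THZ531, with no share of all genes computed. With at least 10 counts in every library, fewer genes were tested, and 703 and, for the interaction, 696 were higher. glmTreat, which tests against the limit on size, gave 673 higher. The lapatinib-induced list had 42 genes with no filter, 55 with DESeq2 and 59 with only the compared groups fitted. Of them 28, 33 and 44 were lower in the combination, with no share of all genes computed for those fits. The cause was not tested. The list had 41 genes above a log2 fold change of 0 and 6 above 1. DESeq2 gave 4 genes for the difference from nilotinib.

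With a replicate block, the combination had 3345 genes lower and 1309 higher, the interaction 2933 and 1062, and the list 32 genes, 22 of them lower. Of the 126 genes, ABCG2, HSPA5 and MTHFD2 passed the threshold with the block, which changed no other call of these genes.

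With each library left out in turn, the combination had 3272 to 3419 genes lower and 1272 to 1387 higher, the interaction 2889 to 3032 and 967 to 1121, and the list 6 to 8 genes, and 6 to 17 listed genes were lower, over 7 only when a combination library was left out. The difference from nilotinib stayed at 0 to 0, and that from 1 µM ran from 242 to 304 lower and 79 to 317 higher. With nilotinib 14 to 17 listed genes were lower, and at 1 against 0.1 µM 8 to 8. The alternatives for the contrasts with nilotinib and 1 µM THZ531 were chosen after seeing the data.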

Other observations

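Small nuclear RNA genes were read as a type chosen after its values were seen. Of 24 tested, 20 were called higher in the combination than with lapatinib and 0 lower, beside 8.23% of all tested genes and 5.48% of the protein-coding genes. Of the 24, 14 had fewer than 10 counts in each lapatinib library, and those 14 were all among the 20. Such genes passed the filter on low counts only through groups where they are high, so a fall was not visible in them and the counts are a description. The other 10 genes had 6 of the higher calls. With at least 10 counts in every library, 703 genes of all types were called higher rather than 1319. RNVU1-6, a variant U1 gene, had 0.0629, 0.0722 and 0.0553 CPM with lapatinib and 7.95, 5.6 and 7.23 in the combination, and is one of those 14. Of the 6, RNU5A-1, a U5 gene, had 0.0629, 0.163 and 0.0369 CPM and then 3.12, 2.58 and 3.24, with a log2 fold change of 5.07. In lapatinib replicates 1 and 3 its CPM was no higher than that of RNVU1-6, so the same limit holds for it. RNU12, of the minor spliceosome, was at 0 in all 3 lapatinib libraries and at 0.776, 0.700 and 0.913 CPM in the combination. The genes that RNA polymerase III makes were mixed. RNU6-1 had 0.69 (adjusted p 0.012), RNU6-8 1.05 (adjusted p 3.7e-05) and RNU6ATAC, one of the 14, 1.72 (adjusted p 0.028), while RNU6-2 had 0.39 (adjusted p 0.46), RN7SK 0.40 (adjusted p 0.34) and RNU6-9 −0.77 (adjusted p 0.22). By library size RNU6-1 (0.36, adjusted p 0.169) and RNU6ATAC (adjusted p 0.0747) missed the threshold, and RNU6-8 was below the limit on size, at 0.72. The libraries were selected for poly(A), which mature small nuclear RNAs lack, so the values count only the transcripts that this selection kept.

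Other noncoding RNAs were read in the same way. Of 49 microRNA precursor genes 59.2% were higher and 4.08% lower, of 139 small nucleolar RNA genes 35.3% and 1.44%, and of 1405 long noncoding RNA genes 22.6% and 13.8%, beside 8.23% and 20.9% of all tested genes. The same limit holds: 23 of the microRNA, 27 of the small nucleolar and 159 of the long noncoding genes had fewer than 10 counts in each lapatinib library, and carried 20, 16 and 107 of the higher calls. That leaves 9, 33 and 211 higher calls, beside 2, 2 and 194 lower calls among all genes of each type. Of these, 38 of the microRNA, 132 of the small nucleolar and 991 of the long noncoding genes overlap another annotated gene, whose reads cannot be told apart.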
